A study of Mus musculus with 10 samples.

Results

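Of the 54532 genes in the deposited expression table, 9 genes of lung xenobiotic metabolism were examined here: Sult1a1, Fmo1, Fmo2, Cyp1a1, Cyp2b10, Cyp4b1, Por, Ces1d and Gsta3. They were chosen by name, with their measured values in these same lungs already known, so their differences between the groups are given as a description: no p is given for them, and where the fit over all genes placed them past its threshold, that is stated as a count from which nothing is read. The lungs came from C57/BL6 mice labelled wild type. The IncPBF group had 5 lungs from pups in which the abdominal aorta was punctured into the inferior vena cava at P7 (an ACF, which raises pulmonary blood flow). The sham group had 5 lungs from pups that had the same operation without the puncture. All lungs were collected at P14, 7 days after the operation, so both groups had been anesthetized and opened. The model is surgical, its shunt lies in the abdomen and not at the heart, and the labels give neither litter nor sex of the pups.

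Xenobiotic metabolism is the chemical handling of foreign compounds, and many of its enzymes also act on lipids, steroids and retinoids of the body. In the first phase, oxidation or hydrolysis opens a reactive site: cytochrome P450 enzymes (the Cyp genes) do so with electrons passed on by Por, flavin-containing monooxygenases (the Fmo genes) oxidize soft nitrogen and sulfur atoms, and carboxylesterases such as Ces1d split esters. In the second phase, transferases add a polar group: Sult1a1 adds sulfate to phenols, and Gsta3 adds glutathione. The lung carries its own set of these enzymes, in which Fmo2 and Cyp4b1 are well known, and they are found in airway club cells, alveolar epithelium, endothelium and fibroblasts to different degrees.

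Each lung was profiled as bulk tissue, and the values were FPKM: fragments counted on a gene, divided by the gene's length in kilobases and scaled to library size. The lungs had 16103423 to 20318525 fragments on genes. A pair of lungs stood apart from their groups. IncPBF 1 had almost no Xist, the RNA of the inactive X chromosome (0.0144 FPKM, against 52.4 to 66.5 in IncPBF 2 to 5), and had the Y-linked gene Ddx3y at 18.6 FPKM. In the sham lungs Xist was at most 0.0770 FPKM and Ddx3y 21.8 to 24.6 FPKM, so sex and group nearly coincided: all 5 sham lungs and IncPBF 1 carried Y-linked RNA, and IncPBF 2 to 5 had next to none (Ddx3y at most 0.00926 FPKM). A fit with Xist as a covariate therefore takes its group difference mainly from IncPBF 1 against the sham lungs. Every call said below to be kept or lost with Xist carries this limit. Sham 5 had little airway RNA, with Scgb1a1, the main club cell product, at 128 FPKM, against 5116 to 11743 in the other sham lungs and 4802 to 10003 in the IncPBF lungs. As for the tissue label, 14 alveolar type 2 markers summed to 13022 to 20740 FPKM, whereas 10 liver genes summed to at most 2.56 FPKM.

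All 9 genes had a lower mean in the IncPBF group than in the sham group. Fmo2 differed most among those tested, to 19.1% of the sham mean, followed by Cyp2b10 (30.6%), Sult1a1 (31.9%), Cyp4b1 (49.4%) and Fmo1 (59.5%). The groups did not overlap in Sult1a1, Fmo1, Fmo2, Cyp1a1, Cyp2b10 and Cyp4b1, where all 5 IncPBF lungs were the lowest, and in Por, Ces1d and Gsta3 the groups overlapped. Of the 8 genes whose mean reached 0.5 FPKM, the limma fit placed 6 past an adjusted p of 0.05 (Sult1a1, Fmo1, Fmo2, Cyp2b10, Cyp4b1 and Por), all with lower values in IncPBF. Over the 15388 genes tested, 32.3% passed, 16.1% higher and 16.2% lower in IncPBF, and in 11.2% all 5 IncPBF lungs were below all 5 sham lungs. Because these genes were chosen with this comparison known, nothing is read from their share against that of all genes. The median log2 difference of the 8 genes was −0.87 and that of all genes tested was 0.01.

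**Figure D1:**
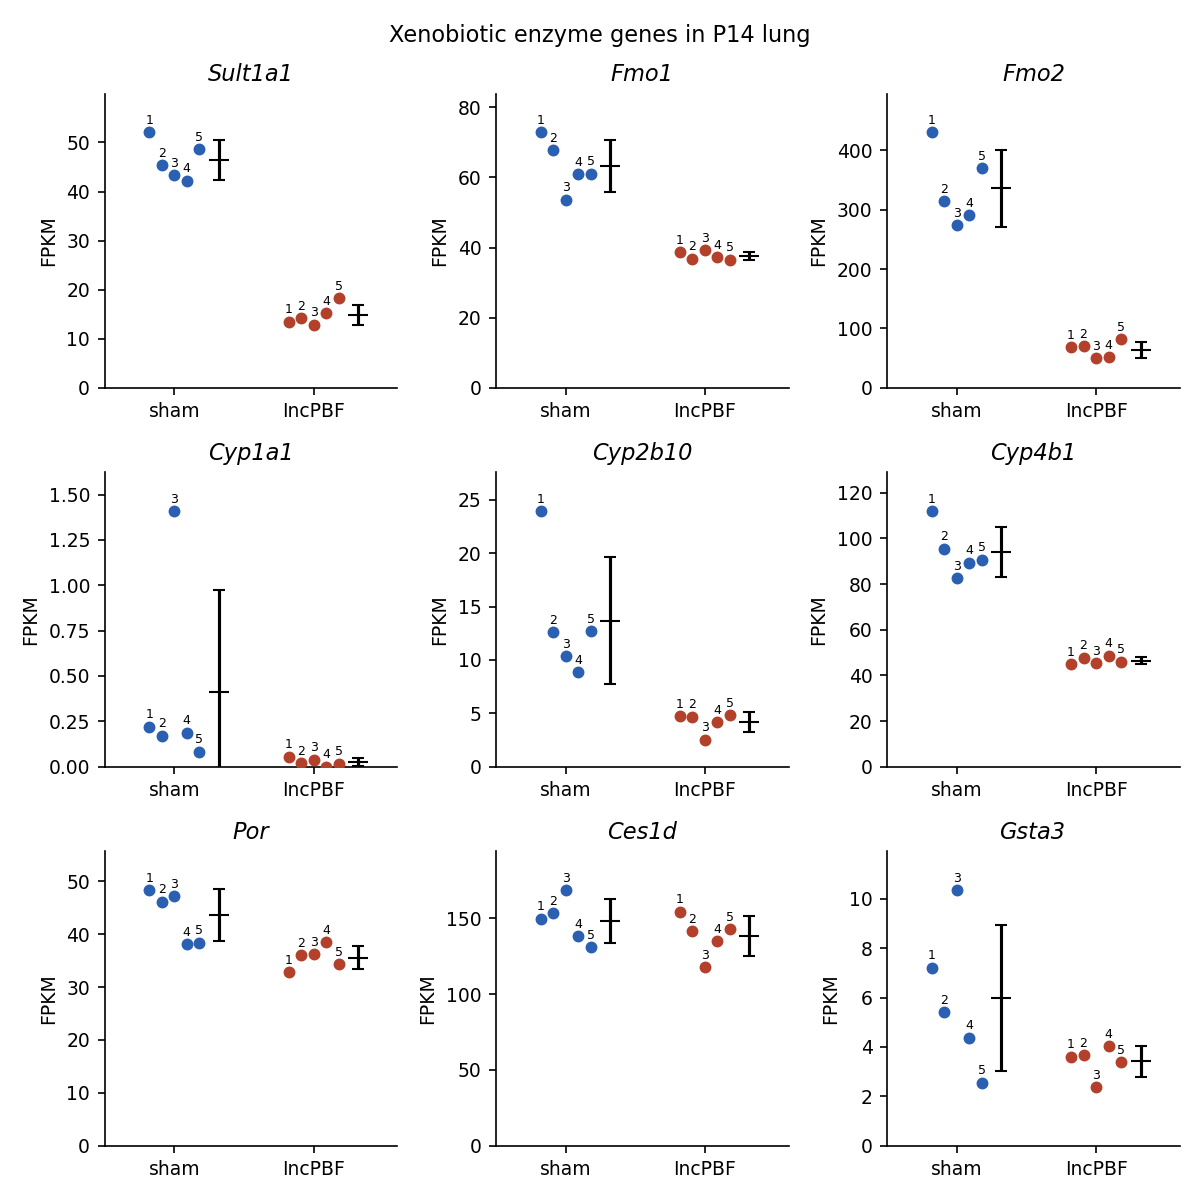
FPKM of the 9 xenobiotic enzyme genes in each lung, sham in blue and IncPBF in red, with the lung number above each point and the mean ± SD of 5 lungs as a bar to the right; each panel has its own linear scale. The red points lie below all blue points in 6 panels and overlap with them for Por, Ces1d and Gsta3, and single sham lungs stand high for Cyp1a1 (1.41 FPKM in sham 3) and Cyp2b10 (24.0 FPKM in sham 1).

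RefSeq promoter windows, which run from 250 bases before to 50 bases after a transcript start, were found for 7 of the 9 genes (Fmo1 and Ces1d had no entry). Each was searched on both strands for the core of the aryl hydrocarbon receptor element (GCGTG), the core of the antioxidant response element (TGACNNNGC) and the core hexamer of the glucocorticoid response element (TGTTCT). These motifs are present in 32.4%, 12.4% and 19.0% of all 32851 promoter windows, respectively. Of the genes with a window and no overlap between the groups, Cyp2b10 is not printed. The 4 windows below belong to the others. They are shown to let the reader see where the motifs lie, in the direction of the gene on GRCm38.p6, with the matches in capitals (TGTTCT appears as AGAACA where the match is on the other strand).
Sult1a1, chr7:126676369-126676668, minus strand: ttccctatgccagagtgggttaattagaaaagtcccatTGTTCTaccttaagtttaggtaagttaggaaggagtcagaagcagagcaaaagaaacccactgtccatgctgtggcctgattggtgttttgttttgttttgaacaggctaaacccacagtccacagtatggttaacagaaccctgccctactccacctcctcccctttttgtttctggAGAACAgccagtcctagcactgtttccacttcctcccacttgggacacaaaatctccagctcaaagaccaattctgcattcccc
Fmo2, chr1:162898444-162898743, minus strand: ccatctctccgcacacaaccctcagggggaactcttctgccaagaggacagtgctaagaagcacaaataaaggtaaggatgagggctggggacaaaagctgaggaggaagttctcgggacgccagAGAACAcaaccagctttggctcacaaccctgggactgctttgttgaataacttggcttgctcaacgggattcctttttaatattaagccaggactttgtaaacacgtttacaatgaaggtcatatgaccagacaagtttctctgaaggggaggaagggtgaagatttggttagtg
Cyp4b1, chr4:115647672-115647971, minus strand: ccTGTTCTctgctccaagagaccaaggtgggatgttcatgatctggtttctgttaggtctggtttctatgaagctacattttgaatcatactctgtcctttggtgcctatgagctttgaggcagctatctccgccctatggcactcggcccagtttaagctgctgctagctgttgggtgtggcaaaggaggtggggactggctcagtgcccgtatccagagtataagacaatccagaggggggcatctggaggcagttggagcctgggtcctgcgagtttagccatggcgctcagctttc
Cyp1a1, chr9:57697363-57697662, plus strand: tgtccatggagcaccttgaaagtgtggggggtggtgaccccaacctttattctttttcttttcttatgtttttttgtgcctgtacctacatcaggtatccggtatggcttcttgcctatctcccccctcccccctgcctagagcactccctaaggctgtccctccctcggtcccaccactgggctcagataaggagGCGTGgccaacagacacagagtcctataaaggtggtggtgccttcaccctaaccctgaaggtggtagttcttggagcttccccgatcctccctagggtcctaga
The Sult1a1 window held TGTTCT at 212 bases before the start and, on the other strand, at 34 bases before it. The windows of Cyp4b1 and of this start of Fmo2 held it at 248 and 125 bases before the start. This Fmo2 window lies almost wholly inside the annotated gene. A further window of Fmo2 (chr1:162898709-162899008), almost wholly before the annotated gene, held none of the 3 motifs. The Cyp1a1 window held GCGTG at 54 bases before the start. This window and that of Por lie wholly inside their annotated genes. Of the windows not shown, that of Por held 3 matches to GCGTG, that of Cyp2b10 held 2, and that of Gsta3 held 1 match to TGACNNNGC at 121 bases before the start. A match of letters is not evidence that a factor binds there.

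Sult1a1 encodes a phenol sulfotransferase and lies on the minus strand of chromosome 7 (chr7:126672865-126676432, GRCm38), in 7 exons of its longest transcript. Its level was 52.2, 45.4, 43.3, 42.2 and 48.7 FPKM in sham lungs 1 to 5 and 13.5, 14.2, 12.9, 15.2 and 18.2 FPKM in IncPBF lungs 1 to 5. The highest IncPBF lung was thus far below the lowest sham lung, and both groups were narrow. The means were 46.4 ± 4.08 FPKM (SD, n = 5) in sham and 14.8 ± 2.11 FPKM (SD, n = 5) in IncPBF. On the scale of log2(FPKM + 0.1), the difference was −1.65 (SE 0.09, 95% interval −1.86 to −1.44), and 73 of the 15388 genes tested, Sult1a1 included, had a difference as low. Among these genes its sham mean stood at percentile 93.6 and its IncPBF mean at percentile 76.6. The last 61 bases of Sult1a1 overlap the gene Sgf29 on the opposite strand, which had 6.80 to 8.84 FPKM in all lungs. Whether the counting used strand is not given in the sources used here, so reads in that stretch cannot be told apart.

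Sulfation needs the donor PAPS, which Papss1 and Papss2 make from sulfate and ATP and which Slc35b2 carries into the Golgi. Papss2 fell with Sult1a1, from 15.7 ± 3.60 FPKM in sham to 4.90 ± 0.778 FPKM in IncPBF (n = 5 each), a log2 difference of −1.64 (SE 0.16, limma adjusted p = 5.11e-05). Papss1, the other synthase, rose from 26.9 ± 2.50 to 32.9 ± 1.25 FPKM, by 0.30 on the log2 scale (SE 0.06, limma adjusted p = 0.00521). Slc35b2 rose from 14.6 ± 1.21 to 18.3 ± 0.726 FPKM, by 0.33 (SE 0.06, limma adjusted p = 0.00251). In none of the 3 did the groups overlap, although for Papss1 the closest lungs were only 30.7 FPKM (sham 2) and 30.8 FPKM (IncPBF 1). With Xist as a covariate Papss2 kept its call (−1.67, limma adjusted p = 0.0133), and those of Papss1 (0.21, limma adjusted p = 0.326) and Slc35b2 (0.35, limma adjusted p = 0.111) were lost. Of the 11 genes of the sulfation list that were tested, 2 were higher and 3 lower in IncPBF, and 6 did not pass, with a median log2 difference of −0.02. None of the 5 other Sult1 genes listed reached the mean of 0.5 FPKM.

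**Figure D2:**
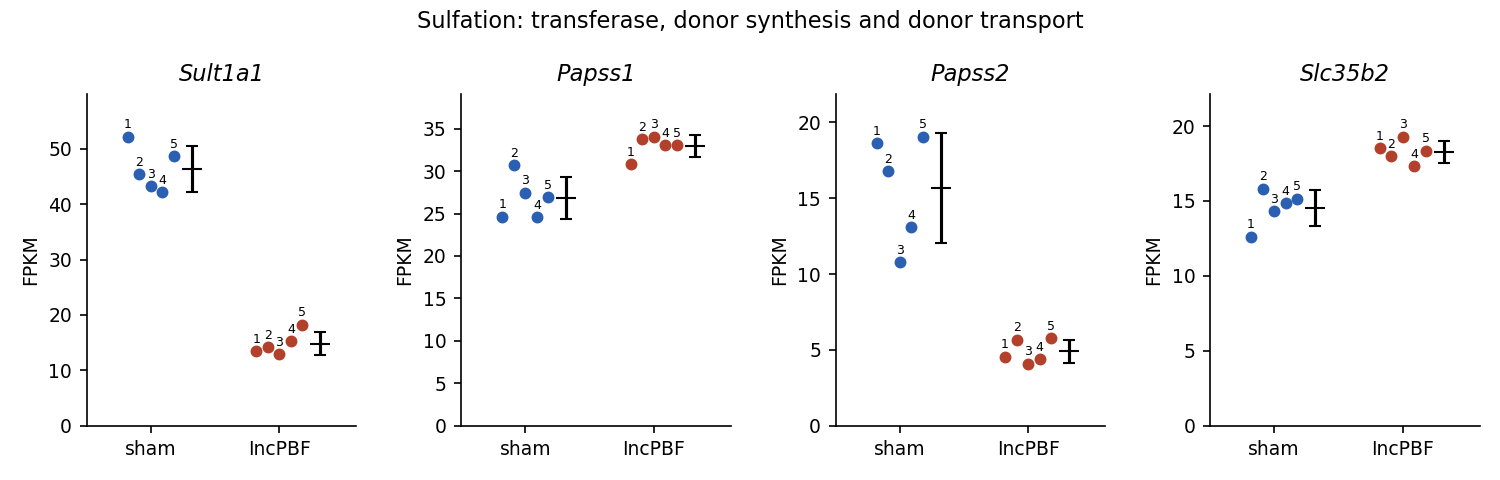
FPKM of Sult1a1, of the PAPS synthases Papss1 and Papss2 and of the PAPS transporter Slc35b2 in each lung, sham in blue and IncPBF in red, with the mean ± SD of 5 lungs as a bar. Sult1a1 and Papss2 have all IncPBF lungs below all sham lungs, and Papss1 and Slc35b2 have all IncPBF lungs above.

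Fmo2, the main flavin-containing monooxygenase of lung in most mammals, lies at chr1:162874317-162898726 on the minus strand, beside Fmo1. In sham lungs 1 to 5 it had 431, 315, 274, 291 and 370 FPKM, which placed its mean (336 ± 64.5 FPKM, SD, n = 5) at percentile 99.6 of the genes tested and first among the 9 genes. In IncPBF lungs 1 to 5 it had 68.0, 69.5, 49.8, 51.3 and 82.2 FPKM (mean 64.2 ± 13.6, SD, n = 5), and it was then second to Ces1d. The gap between the groups was wide, with the highest IncPBF lung far below the lowest sham lung. The log2 difference was −2.39 (SE 0.16, 95% interval −2.74 to −2.04), and only 24 of the genes tested, Fmo2 included, had a difference as low.

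Fmo1 (chr1:162829561-162866610, minus strand), which oxidizes a wide range of amines and sulfides, had 73.0, 67.8, 53.7, 61.0 and 61.1 FPKM in sham lungs 1 to 5. In IncPBF lungs 1 to 5 it had 38.7, 36.9, 39.2, 37.2 and 36.5 FPKM, a spread of only 1.17 FPKM (SD) around 37.7. Its log2 difference was −0.74 (SE 0.07, 95% interval −0.90 to −0.57), smaller than that of its neighbour Fmo2. The ratio of Fmo2 to Fmo1 within a lung was therefore 4.64 to 6.07 in sham lungs and 1.27 to 2.25 in IncPBF lungs, without overlap. Fmo2 made up 44.5 ± 3.96% of the summed FPKM of the 9 genes in sham lungs and 18.5 ± 2.77% in IncPBF lungs (SD, n = 5 each).

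Of the 5 other Fmo genes listed, 3 were tested and 2 fell. Fmo5, which can oxidize ketones, fell from 4.51 ± 0.518 to 2.24 ± 0.182 FPKM (log2 difference −0.97, SE 0.09, limma adjusted p = 3.44e-05). Fmo4 fell by 0.64 on the log2 scale (SE 0.19, limma adjusted p = 0.0263), at a low level of 1.31 FPKM in sham and with overlap between the groups. With Xist as a covariate the difference of Fmo4 was −0.26 and its call was lost (limma adjusted p = 0.688).

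Among the P450 genes, Cyp4b1, which hydroxylates fatty acids and activates several lung toxicants, had the highest level of the 3 chosen. It lies at chr4:115624725-115647723 on the minus strand and has 12 exons in its longest transcript. Its level was 112, 95.6, 82.5, 89.4 and 90.7 FPKM in sham lungs 1 to 5 and 44.8, 47.7, 45.3, 48.6 and 46.0 FPKM in IncPBF lungs 1 to 5. The IncPBF lungs lay close together (46.5 ± 1.61 FPKM, SD, n = 5) and well below the sham lungs (94.1 ± 11.1 FPKM, SD, n = 5). This gave a log2 difference of −1.01 (SE 0.07, 95% interval −1.17 to −0.84).

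Cyp2b10, the mouse P450 best known as the target of the constitutive androstane receptor in liver, lies at chr7:25897620-25926624 on the plus strand, in 9 exons of its longest transcript. Its level was 24.0, 12.6, 10.4, 8.87 and 12.7 FPKM in sham lungs 1 to 5 and 4.73, 4.70, 2.54, 4.14 and 4.86 FPKM in IncPBF lungs 1 to 5. Sham 1 stood high and the other 4 sham lungs were close together, yet even the lowest of them was above every IncPBF lung. The log2 difference was −1.63 (SE 0.25, 95% interval −2.19 to −1.07), and leaving out 1 lung at a time gave −1.76 to −1.41. With Xist as a covariate it was −1.38 (SE 0.44), and that fit did not place it past the threshold.

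Cyp1a1, the classic target of the aryl hydrocarbon receptor, lies at chr9:57687928-57703824 on the plus strand. It was below 0.5 FPKM in 9 of the 10 lungs and was not tested, because its mean over the 10 lungs was below 0.5 FPKM. The fragments on the gene numbered 11, 9, 74, 10 and 4 in sham lungs 1 to 5 (0.220, 0.171, 1.41, 0.188 and 0.0824 FPKM) and 3, 1, 2, 0 and 1 in IncPBF lungs 1 to 5 (0.0557, 0.0191, 0.0388, 0 and 0.0173 FPKM). A count of 0 allows up to 3 fragments in that lung. The groups did not overlap, but sham 5 and IncPBF 1 differed by a single fragment. In sum there were 108 fragments in sham and 7 in IncPBF, a ratio of 15.8 after scaling (exact 95% interval 7.43 to 40.3, counting error only). Without sham 3, which held most of the fragments, the sums were 34 and 7 and the ratio was 6.26 (interval 2.73 to 16.7).

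Among the other P450 genes of families 1 to 4, 15 of 37 were tested, 5 fell and none rose. The median log2 difference of the 15 was −0.12. Cyp2e1, which oxidizes ethanol and other small molecules, fell from 22.8 ± 7.64 to 4.45 ± 2.08 FPKM (log2 difference −2.39, SE 0.30, limma adjusted p = 0.000199). Cyp2d22 fell from 14.4 ± 1.32 to 7.14 ± 0.205 FPKM (−1.0, SE 0.06, limma adjusted p = 4.95e-06). Both were without overlap between the groups. With Xist as a covariate Cyp2e1 was at −1.57 and lost its call (limma adjusted p = 0.0657). Summed over all P450 genes of families 1 to 4, the level was 358 ± 121 FPKM in sham and 265 ± 41.2 FPKM in IncPBF and the groups overlapped. The club cell enzyme Cyp2f2, named here after its values were seen, makes up much of this sum: it had 125 to 346 FPKM in sham lungs 1 to 4, 7.49 FPKM in sham 5 and 107 to 211 FPKM in the IncPBF lungs.

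Por, the reductase that passes electrons from NADPH to the microsomal P450 enzymes, lies at chr5:135670033-135735326 on the plus strand. Its level was 48.4, 46.2, 47.2, 38.2 and 38.4 FPKM in sham lungs 1 to 5 and 32.8, 36.1, 36.2, 38.6 and 34.4 FPKM in IncPBF lungs 1 to 5. The sham lungs fell into 3 high and 2 low values, and IncPBF 4 overlapped with the low ones. The log2 difference was −0.29 (SE 0.08, 95% interval −0.46 to −0.11). It was −0.21 with limma-voom on the fragments and −0.41 with Xist as a covariate, and neither fit placed it past the threshold. The P450 genes chosen differed by more than their reductase: the ratio of Cyp4b1 to Por was 1.75 to 2.36 in sham lungs and 1.25 to 1.37 in IncPBF lungs. The ratio of Cyp2b10 to Por was 0.220 to 0.495 in sham lungs and 0.0700 to 0.144 in IncPBF lungs. Of the 9 other electron partners tested, 2 fell and none rose. Cyb5r3, which reduces cytochrome b5, fell from 67.8 ± 7.95 to 57.7 ± 3.75 FPKM (log2 difference −0.23, SE 0.08, limma adjusted p = 0.0496), with overlap, and lost its call with Xist as a covariate (−0.35, limma adjusted p = 0.186). Cytochrome b5 itself (Cyb5a) had 46.3 ± 5.36 FPKM in sham and 41.5 ± 3.61 FPKM in IncPBF (limma adjusted p = 0.211).

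Ces1d, a carboxylesterase that also hydrolyzes triacylglycerol, lies at chr8:93166068-93197838 on the minus strand and has 14 exons in its longest transcript. It was abundant in both groups, with 150, 153, 169, 138 and 131 FPKM in sham lungs 1 to 5 and 154, 142, 118, 135 and 143 FPKM in IncPBF lungs 1 to 5. The groups overlapped over most of their range. Between the groups the log2 difference was −0.10 (SE 0.09, 95% interval −0.29 to 0.09), and with Xist as a covariate its sign turned, to 0.05. An interval of this width holds both a small decrease and no difference. Of the 10 other hydrolases tested, 4 fell and none rose. Ephx1, the microsomal epoxide hydrolase, fell from 44.3 ± 1.94 to 28.1 ± 1.93 FPKM (−0.66, SE 0.06, limma adjusted p = 2.3e-05). Ces2g fell from 4.81 ± 1.28 to 2.55 ± 0.551 FPKM (−0.88, SE 0.20, limma adjusted p = 0.00606). With Xist as a covariate Ephx1 kept its call, and Ces2g (−0.65, limma adjusted p = 0.311) lost it. Ces1e, the single tested paralog of Ces1d in its subfamily, had 1.85 ± 0.678 FPKM in sham and 1.71 ± 0.266 FPKM in IncPBF (limma adjusted p = 0.846).

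Gsta3, a glutathione S-transferase of the alpha class, lies at chr1:21240589-21265661 on the plus strand. Its level was 7.21, 5.40, 10.4, 4.37 and 2.55 FPKM in sham lungs 1 to 5 and 3.61, 3.66, 2.38, 4.04 and 3.37 FPKM in IncPBF lungs 1 to 5. Sham lungs 1 to 4 were above all IncPBF lungs, and sham 5, the lung with little airway RNA, was below 4 of the 5. The log2 difference was −0.67 (SE 0.30, 95% interval −1.33 to 0.00) in all lungs. Single sham lungs moved it both ways, to −0.93 without sham 5 (interval −1.44 to −0.42) and to −0.43 without sham 3 (SE 0.26), the lung with the highest level, and with the mean of the club cell genes as a covariate it was −1.01. The antisense gene Gm28836 spans most of Gsta3 but had at most 0.248 FPKM in any lung.

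**Figure D3:**
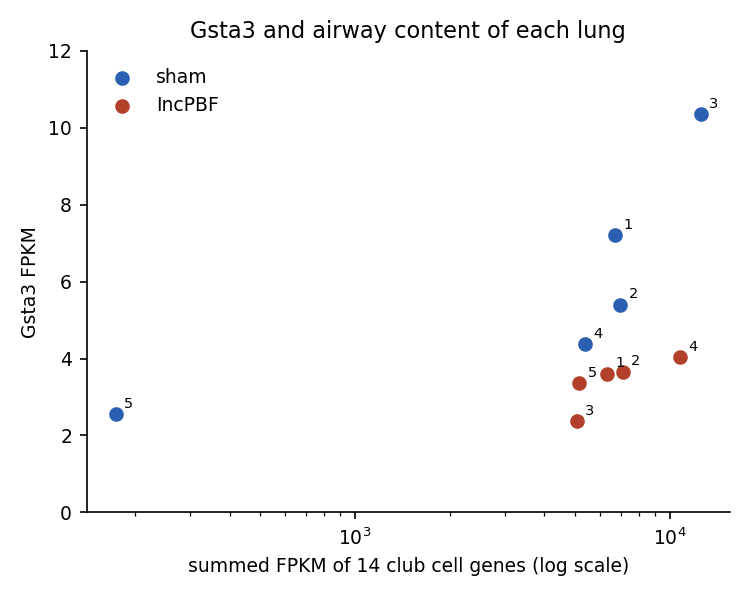
Gsta3 FPKM (linear axis) against the summed FPKM of 14 club cell genes (log axis) in each lung, sham in blue and IncPBF in red, numbered as in the text. Sham 5 stands apart at 174 FPKM of club cell genes, against 5076 to 12537 FPKM in the other 9 lungs, and has 2.55 FPKM of Gsta3.

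Of the 25 tested genes of the glutathione list other than Gsta3, 6 rose, 1 fell and 18 did not pass, with a median log2 difference of 0.12. With the Xist covariate none of these rises passed, at 0.68 for Gstm7 and 0.32 for Gstm5, nor did the fall of Gstm1 described next (−0.59, limma adjusted p = 0.0908). Gstm7 rose from 1.77 ± 0.444 to 3.06 ± 0.293 FPKM (0.79, SE 0.16, limma adjusted p = 0.00383), and Gstm5 rose from 7.14 ± 0.849 to 9.94 ± 0.898 FPKM (0.48, SE 0.09, limma adjusted p = 0.00284). Gstm1, the most abundant of the 3, fell from 84.8 ± 12.7 to 56.7 ± 4.60 FPKM (−0.57, SE 0.10, limma adjusted p = 0.00145). The Gstm genes are similar in sequence, and how the counting divided shared reads is not given in the sources used here. The paralogs Gsta4 (18.6 ± 5.82 FPKM in sham, 21.8 ± 3.15 FPKM in IncPBF, limma adjusted p = 0.309) and Gsta2 (near 1 FPKM, limma adjusted p = 0.939) did not pass.

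**Figure D4:**
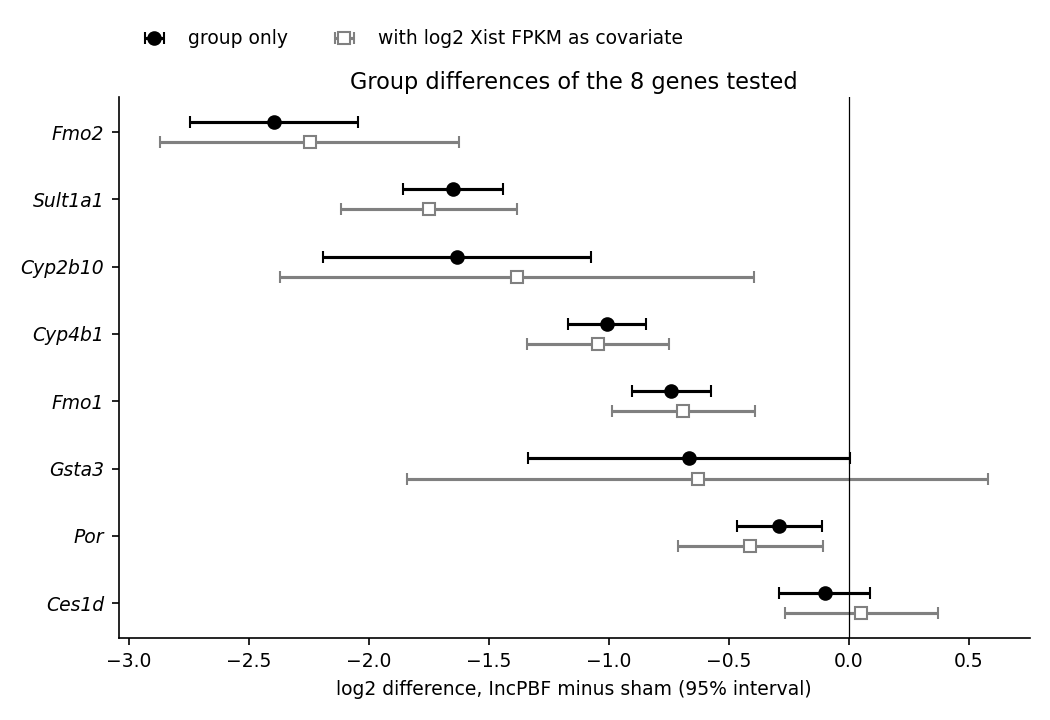
Log2 difference between IncPBF and sham with its 95% interval for the 8 genes tested, from the fit with the group only (black circles) and with log2 Xist FPKM added as a covariate (grey squares). Fmo2 lies lowest in both fits (−2.39 and −2.25), and the intervals of Gsta3 and Ces1d reach 0 in both.

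The differences were also computed with the lungs that stood apart taken into account. IncPBF 1, the IncPBF lung without Xist, was below all sham lungs in 7 of the 9 genes, all but Ces1d and Gsta3. For Cyp1a1 this rested on a single fragment. The share of all genes tested in which this lung was below all sham lungs is not given here. Nothing is read from the count, since the genes were chosen with this lung in the comparison. Once log2 Xist FPKM entered the fit, the log2 differences were −2.25 for Fmo2, −1.75 for Sult1a1, −1.05 for Cyp4b1, −0.69 for Fmo1, −1.38 for Cyp2b10 and −0.41 for Por. That fit placed the first 4 of these past the threshold, and 4.82% of all genes tested. Without IncPBF 1 and sham 5 together, a setting chosen after the data were seen, the differences were −2.38 for Fmo2, −1.60 for Sult1a1, −1.69 for Cyp2b10, −1.01 for Cyp4b1, −0.76 for Fmo1, −0.30 for Por, −0.18 for Ces1d and −0.95 for Gsta3. Sex and operation cannot be fully told apart in these lungs, since a single IncPBF lung carried Y-linked RNA.

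The order of the levels changed between the groups. In sham lungs it ran from Fmo2 through Ces1d, Cyp4b1, Fmo1, Sult1a1, Por, Cyp2b10 and Gsta3 to Cyp1a1. In this order the neighbours Sult1a1 and Por, and Cyp2b10 and Gsta3, overlapped between lungs, and the others did not. In IncPBF lungs Ces1d came first, ahead of Fmo2, and Por came ahead of Sult1a1, with overlap between Fmo1 and Por and again between Cyp2b10 and Gsta3. The summed FPKM of the 9 genes was 673 to 898 in sham lungs and 306 to 368 in IncPBF lungs. Without Fmo2 the sums were 382 to 467 and 256 to 292, also without overlap.

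Within the groups, some of the genes varied together. Over the 10 lungs, after each group mean was taken off, Pearson's r was 0.83 between Fmo1 and Cyp4b1, 0.82 between Fmo2 and Cyp2b10, 0.81 between Ces1d and Gsta3 and 0.73 between Sult1a1 and Fmo2. Sham 1 was the highest sham lung for 6 of the 9 genes, and IncPBF 3 was the lowest IncPBF lung for 5. The 5 genes most like Sult1a1 by this measure, among 8187 genes with a mean of at least 5 FPKM, were Rnf2 (0.92), Rtkn2 (0.91), Clcn4 (0.89), Tcp1 (0.87) and Api5 (0.86). Within each of the 10 lungs all genes share the depth and the tissue composition of that library, and no test was made of these correlations. The highest values in a search of 8187 genes over 10 lungs can be this large without any relation between the genes.

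The wider set of xenobiotic genes was mixed in direction. The 10 lists held 246 genes other than the 9, of which 145 were tested, and 42 of these fell (29.0%), 19 rose (13.1%) and 84 did not pass, beside the 16.2% and 16.1% over all genes given above. The split moved with the method, to 32 lower and 26 higher with limma-voom on the fragments and 35 and 24 with an equal FPKM total per lung. With Xist as a covariate, 12 were lower and 0 higher at an adjusted p of 0.05, although all 61 kept their sign: the median of the 19 rises was 0.46 (0.49 without the covariate) and that of the 42 falls −0.55 (−0.59), while the median SE grew from 0.10 to 0.18 in both. The fit with Xist rests mainly on IncPBF 1 against the sham lungs. IncPBF 1 was also among the lungs behind the 61 calls, so the kept signs are partly built in. The lists were drawn up with results of these data known, and their counts are a description.

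**Figure D5:**
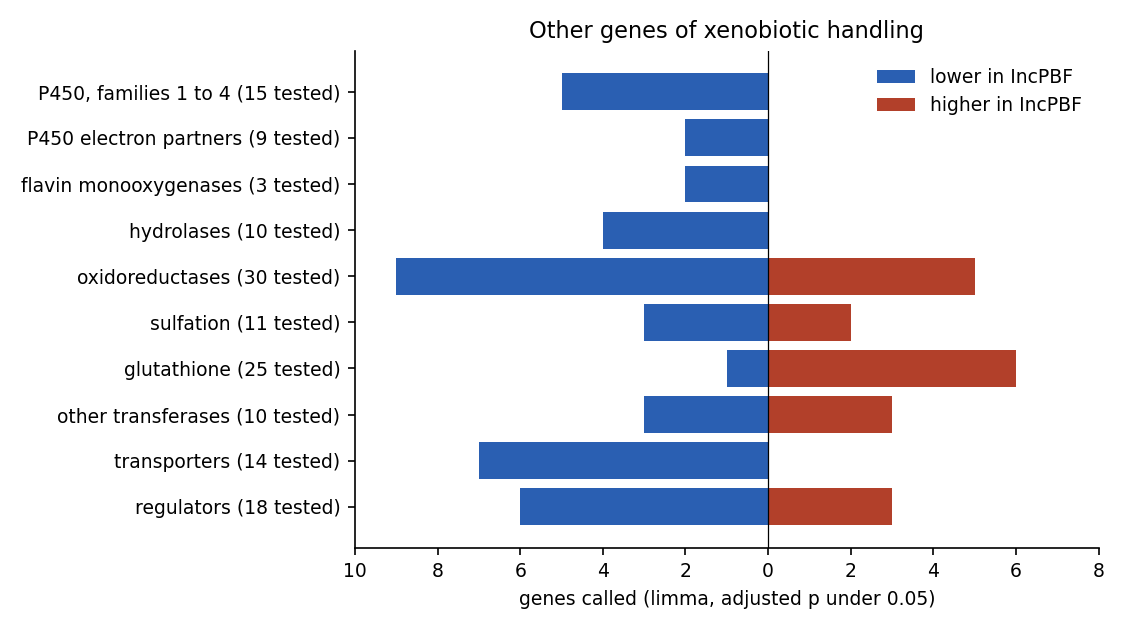
Number of genes called lower (blue, to the left) and higher (red, to the right) in IncPBF in each of the 10 lists of other xenobiotic genes, by limma at an adjusted p of 0.05, with the number tested in parentheses. The P450, electron partner, monooxygenase, hydrolase and transporter lists have calls to the left only, and the glutathione list has 6 to the right and 1 to the left.

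Of the 30 oxidoreductases tested, 9 fell and 5 rose. Xdh, which oxidizes purines, fell from 25.7 ± 5.48 to 5.63 ± 0.936 FPKM (−2.16, SE 0.15, limma adjusted p = 6.68e-06). Aldh1a1, which makes retinoic acid, fell from 131 ± 34.6 to 45.5 ± 11.3 FPKM (−1.52, SE 0.21, limma adjusted p = 0.000369). In contrast, Adh1, which oxidizes retinol and ethanol, rose from 91.5 ± 16.7 to 154 ± 7.09 FPKM (0.77, SE 0.11, limma adjusted p = 0.000585). The aldo-keto reductase Akr1b8 rose from 4.00 ± 0.733 to 6.30 ± 0.289 FPKM (0.66, SE 0.11, limma adjusted p = 0.00134).

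Of the 10 other transferases tested, 3 fell and 3 rose. Inmt, which methylates indoleamines and is abundant in lung, fell from 502 ± 122 to 64.8 ± 23.2 FPKM, a difference of −2.99 (SE 0.25, limma adjusted p = 1.76e-05) that exceeded that of Fmo2. Gnmt, which methylates glycine, fell by 0.63 on the log2 scale (limma adjusted p = 0.00284). Nnmt, which methylates nicotinamide, rose from 4.69 ± 1.23 to 8.57 ± 0.897 FPKM (0.89, SE 0.17, limma adjusted p = 0.00251), and Tpmt, which methylates thiopurines, rose by 0.59 (limma adjusted p = 0.00568). Of the 14 transporters tested, 7 fell and none rose. With Xist as a covariate none of these 7 falls passed, the closest being Slc22a5 (−0.60, limma adjusted p = 0.0519). The prostaglandin transporter Slco2a1 fell from 60.8 ± 10.2 to 35.3 ± 1.28 FPKM (−0.77, SE 0.10, limma adjusted p = 0.00025), and the peptide transporter Slc15a2 fell from 7.80 ± 1.81 to 3.94 ± 0.765 FPKM (−0.96, SE 0.17, limma adjusted p = 0.00177). Once log2 Xist FPKM entered the fit, the 12 falls that passed included Inmt (−2.68), Xdh (−1.79), Papss2 (−1.67), Fmo5 (−1.08), Cyp2d22 (−1.01) and Ephx1 (−0.54). The other falls and rises named here then did not pass, among them Aldh1a1 (−1.42, limma adjusted p = 0.0590), Adh1 (0.80, limma adjusted p = 0.0538), Akr1b8 (0.64), Nnmt (0.82), Slco2a1 (−0.68) and Slc15a2 (−0.80).

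Among the sensors and transcription factors that control xenobiotic enzymes, 18 were tested, of which 6 fell and 3 rose. Ahr, the aryl hydrocarbon receptor, had 36.0 ± 4.35 FPKM in sham and 31.2 ± 3.77 FPKM in IncPBF (−0.20, interval −0.43 to 0.02, limma adjusted p = 0.158), and its partner Arnt had 14.8 ± 1.32 and 13.6 ± 0.868 FPKM (−0.12, limma adjusted p = 0.197). Of the 6 other classic targets of Ahr, 4 were tested and only Tiparp fell, from 11.9 ± 1.71 to 9.40 ± 0.400 FPKM (−0.32, SE 0.09, limma adjusted p = 0.0158), and its call was lost with Xist as a covariate (−0.30, limma adjusted p = 0.315). Cyp1b1 (−0.49, limma adjusted p = 0.351), Aldh3a1 (−0.47, limma adjusted p = 0.545) and Nqo1 (−0.04, limma adjusted p = 0.946) did not pass, and Cyp1a2 and the repressor Ahrr were below the level tested, at no more than a mean of 0.0684 FPKM in either group. The receptors Nr1i2 (PXR) and Nr1i3 (CAR), which drive Cyp2b10 in liver, were also below it, with means of at most 0.0592 and 0.0145 FPKM.

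Nfe2l2, which encodes Nrf2, fell from 39.2 ± 1.82 to 33.9 ± 1.99 FPKM (−0.21, SE 0.05, limma adjusted p = 0.0134), with overlap through sham 3, and its inhibitor Keap1 had 11.1 ± 0.918 and 10.8 ± 0.541 FPKM (limma adjusted p = 0.668). Maff, a small partner of Nrf2, rose from 8.48 ± 1.12 to 14 ± 1.67 FPKM (0.72, SE 0.10, limma adjusted p = 0.000548). Nr1h3, the liver X receptor alpha, fell from 19.8 ± 2.53 to 14.9 ± 1.08 FPKM (−0.40, limma adjusted p = 0.00559), and Cebpa fell from 54.6 ± 3.19 to 42.3 ± 4.27 FPKM (−0.37, limma adjusted p = 0.00306). None of these 4 calls held with Xist as a covariate, where the differences were −0.20 for Nfe2l2, 0.58 for Maff, −0.24 for Nr1h3 and −0.31 for Cebpa.

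Cell type markers moved beside these enzymes. In bulk tissue, fewer cells of a type and less RNA per cell cannot be told apart. Of 14 alveolar type 1 markers, 12 fell and none rose, and their summed level was 1901 to 2064 FPKM in IncPBF lungs and 2286 to 3061 FPKM in sham lungs, a mean of 73.5% of sham. Of 14 alveolar type 2 markers 7 fell (13022 to 16162 against 16922 to 20740 FPKM, 79.7% of sham), and of 16 capillary markers 11 fell and 1 rose (1908 to 2063 against 2173 to 2619 FPKM, 83.1%). Alveolar fibroblast and lipofibroblast markers had 4 of 14 lower and 2 higher (3000 to 3243 against 3125 to 4053 FPKM, 88.1%). Smooth muscle and myofibroblast markers went the other way, with 6 of 10 higher (642 to 1045 against 287 to 540 FPKM, 228%). The club cell list had none of its 10 tested genes called (5076 to 10762 against 174 to 12537 FPKM), and likewise the ciliated list none of 18 (142 to 217 against 109 to 223 FPKM). With the club list as a covariate, the log2 differences were −2.30 for Fmo2, −1.63 for Sult1a1, −1.63 for Cyp2b10, −1.01 for Cyp4b1, −0.73 for Fmo1 and −0.36 for Por. Macrophage markers had 2 of 12 lower (125 to 474 against 147 to 446 FPKM). The part that alveolar, capillary or muscle content had in the enzyme differences was not tested.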

How the data were processed

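Whole lungs were profiled by bulk RNA-sequencing (NEBNext library, NovaSeq). The authors deposited FPKM and gene lengths, and the submitters' processing notes name Bowtie 0.12.2 and the builds GRCm38, mm10 and hg38 without roles; the counting software and its use of strand are not given in the sources used here. Of 54495 genes shared with GENCODE M21, 98.3% had identical GRCm38 coordinates, including all 9 enzyme genes. FPKM times length gave whole fragments (tolerance 0.01) for over 99.9% of values per lung. FPKM of 1 fragment on 1 kb was 0.0482 to 0.0580, and counting intervals cover counting error only. IncPBF columns are abbreviated differently from the titles and could be matched to the group but not to single samples, so lung numbers are those of the columns.

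The 15388 genes averaging 0.5 FPKM or more entered limma 3.58.1 (lmFit, eBayes with trend; R 4.3.3) as log2(FPKM + 0.1), IncPBF against sham, with Benjamini-Hochberg adjustment over all genes tested. Fold changes on this scale understate changes of low genes. Nothing in the sources says how the lungs were drawn from litters, so p-values measure the spread between these lungs. On simulated data with 196 of 15271 genes changed by 1 log2 unit, the test recovered 89.8% with 8 false calls. The simulation gave all genes the same dispersion and held no difference of sex or airway content between lungs. It also changed a far smaller share of genes than the fit called here. Its rates check the code and do not carry over to these lungs. Promoter sequences are those of RefSeq (GRCm38.p6). Python 3.11.15, pandas 2.3.3, numpy 2.4.6 and matplotlib 3.10.9 were used.

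The enzyme genes, gene lists, motifs and markers were chosen with earlier results of these data known. Named besides the 9 genes were, per list, up to 2 rises and 2 falls of largest size among genes called with a mean of at least 1 FPKM and no overlap, the tested paralogs, 7 regulators, the Ahr targets, 2 electron partners, and Xist and Ddx3y; Scgb1a1, Cyp2f2 and genes named for an overlap on the other strand lie outside this rule. Alternatives changed the pseudocount, the filter, the scaling, the test, covariates, a replicate block and single lungs. No batch, litter or date is labelled, so none was modelled. Sts and Gsta13 were not analysed here, and 1 tested paralog is not reported here.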

Additional observations from a re-analysis of the deposited data

Results flagged for a closer look

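Within each group of 5 lungs, a lung whose gap to its nearest neighbour took more than the share of the group's range given by Dixon's 95% critical value was noted. Over 108 combinations of group and gene 7 such lungs were found, where chance at 1 in 20 would give about 5.4. Cyp1a1 stood high in sham 3 (1.41 FPKM) and Cyp2b10 in sham 1 (24.0 FPKM), and both genes kept every IncPBF lung below every sham lung. Nfe2l2 stood low in sham 3 (36.0 FPKM). Nr1i3 in IncPBF 2 (0.0604 FPKM) and Cyp1a2 in IncPBF 3 (0.0269 FPKM) stood apart at a level of a few fragments. Xist was low (0.0144 FPKM) and Ddx3y high (18.6 FPKM) in IncPBF 1, which differs in these genes from the other 4 IncPBF lungs.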

How the results depend on the processing

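The count of enzyme genes called was 6 of 8 and ranged from 4 to 7 over 24 other settings, with all calls lower in IncPBF. The share of all genes called was 32.3% in the main fit. It ran from 4.82% with the Xist covariate (4 enzyme genes) to 35.8% by limma-voom (5), and was 13.4% without the filter (6). Of 192 single log2 differences 191 moved by less than 1 SD between lungs, the exception being Ces1d with the Xist covariate (0.05). Much of this count was fixed in advance. Leaving out 1 lung of a group of 5 cannot move a difference by 1 SD. The filter, the replicate block and the eBayes trend leave the difference itself unchanged. The count is therefore no measure of stability. Cyp1a1 could be fitted only without the filter (−1.57). Leaving out each lung in turn gave 6 to 7 enzyme genes called (7 without sham 5, through Gsta3), at 25.1% to 34% of all genes called, 16 to 22 other xenobiotic genes called higher and 34 to 44 lower, against 19 and 42 in all lungs. With log2 Xist FPKM as a covariate, 0 other genes were called higher and 12 lower, with all 19 rises and 42 falls keeping their sign (median 0.46 and −0.55, against 0.49 and −0.59) and 39 of 145 genes at an unadjusted p under 0.05, and 741 of all genes were called, against 4970. By limma-voom 26 were higher and 32 lower. Without IncPBF 1 and sham 5 together, chosen after the data were seen, 7 enzyme genes were called, beside 22.6% of all genes, and 15 others higher and 37 lower. Same-numbered lungs showed correlations of −0.07 to 0.09 between their deviations from the group means, and 2 of 5 IncPBF lungs were closest to their own number. These values show no strong pairing by number, but such a check cannot exclude a pairing. A fit with the replicate number as a block called 6 enzyme genes, 20 others higher and 41 lower, and 4872 of all genes. The low counts of Cyp1a1 limit its ratio, and Xist and group overlap in all but 1 IncPBF lung, which limits that covariate. The group differences in the fit with Xist rest mainly on IncPBF 1 against the sham lungs, so the kept signs are partly built in.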

Other observations

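Genes of heme synthesis and breakdown supply and recycle the cofactor of P450 enzymes. Of the 13 tested, 1 rose, 2 fell and 10 did not pass, and their median log2 difference was −0.00335. Of 14 classic targets of Nrf2 tested, 5 were higher in IncPBF, 1 was lower and 8 did not pass, and their median log2 difference was 0.13. Over all genes tested 16.1% were higher and 16.2% lower. How many calls of these lists hold with Xist as a covariate is not given here. Of the 19 rises in the wider xenobiotic set, none was called with it. These lists were drawn up with other results of the data known, and no test of a list as a whole was made.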
